A study of Mus musculus with 62 samples.

Results

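Calcium release, uptake and buffering in muscle were followed through 10 genes of the mouse diaphragm: Ryr1, Cacna1s and Jph1 for release, Atp2a1 and Atp2a2 for uptake, Sln and Pln for the control of uptake, and Casq1, Casq2 and Pvalb for buffering. The genes were chosen by name from the 47643 genes of the expression table, and all 10 were found in it and passed the filter on low values. The data are RNA-seq of the diaphragm, the main muscle of breathing, from 62 female mice that were 2 months old. Mice received a mock injection (control), non-cachectic melanoma cells, or cachectic melanoma cells, and muscles were taken 2, 4, 6 or 8 weeks later. Each condition held 5 mice, except that of cachectic mice at 8 weeks, which held 7. Each tumor type was a single patient-derived melanoma xenograft grown in the flank, so that the contrast between them is also one between 2 tumors. The sample labels give the strain as C57BL6/J, whereas the series' design names NCI Ath/nude mice, which lack T cells and accept human tumors; both sources give a single strain for all groups. Expression is given in TPM, a level corrected for transcript length and scaled so that each library adds up to 1000000. Tests were made on log2(TPM + 1), on which fold changes of low genes are understated. The reads behind each value are unknown, so no counting error can be given, and the number of mice limits the precision.

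In skeletal muscle, an action potential runs down the transverse tubules and moves the voltage sensor, whose pore subunit is encoded by Cacna1s. The sensor opens the ryanodine receptor (Ryr1) of the sarcoplasmic reticulum, and junctophilin 1 (Jph1) holds the membranes of tubule and reticulum together. Released calcium starts contraction and is then pumped back by the SERCA pumps, Atp2a1 in fast fibers and Atp2a2 in slow fibers and heart. The small membrane proteins sarcolipin (Sln) and phospholamban (Pln) slow or uncouple these pumps, calsequestrins (Casq1, Casq2) bind calcium inside the reticulum, and parvalbumin (Pvalb) binds it in the cytosol of fast fibers.

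The pump regulators are small enough to be read whole, and are shown because one of them was among the most abundant members and the other the least. The coding sequence of Sln lay at chr9:53853473-53853565 (GRCm38, + strand, stop codon not counted) with 31 codons in 1 coding exon, and that of Pln at chr10:53343864-53344019 (+ strand) with 52 codons, also in 1 coding exon. They read 5′ to 3′ as follows, with the start and stop codons in capitals.
Sln: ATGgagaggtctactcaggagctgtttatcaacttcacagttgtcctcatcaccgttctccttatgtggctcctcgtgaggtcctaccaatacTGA
Pln: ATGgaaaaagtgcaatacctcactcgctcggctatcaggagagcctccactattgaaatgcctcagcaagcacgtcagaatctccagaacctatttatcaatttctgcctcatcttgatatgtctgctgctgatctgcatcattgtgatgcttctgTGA

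The promoters of Casq1, Casq2 and Pvalb are shown because these 3 genes were lower together in the late cachectic muscle. They were taken from RefSeq (GRCm38.p6) as 300 bases around each annotated start, at chr1:172219846-172220145 (- strand) for Casq1, chr3:102086165-102086464 (+ strand) for Casq2, and, for the pair of annotated starts of Pvalb, chr15:78206351-78206650 and chr15:78204188-78204487 (- strand). The sequences are written 5′ to 3′ on the strand of the gene, with each E-box, the CANNTG motif of myogenic factors, in capitals.
Casq1: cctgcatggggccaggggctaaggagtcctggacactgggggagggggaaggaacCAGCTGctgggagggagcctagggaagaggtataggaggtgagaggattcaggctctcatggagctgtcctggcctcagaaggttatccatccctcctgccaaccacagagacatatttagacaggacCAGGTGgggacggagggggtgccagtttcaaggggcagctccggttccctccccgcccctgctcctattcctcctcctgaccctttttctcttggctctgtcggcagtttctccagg
Casq2: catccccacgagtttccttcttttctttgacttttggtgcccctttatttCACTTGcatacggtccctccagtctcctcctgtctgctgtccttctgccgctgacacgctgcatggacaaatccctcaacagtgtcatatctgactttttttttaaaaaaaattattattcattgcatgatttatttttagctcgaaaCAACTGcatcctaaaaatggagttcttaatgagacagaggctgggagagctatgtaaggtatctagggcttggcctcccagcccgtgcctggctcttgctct
Pvalb, upstream start: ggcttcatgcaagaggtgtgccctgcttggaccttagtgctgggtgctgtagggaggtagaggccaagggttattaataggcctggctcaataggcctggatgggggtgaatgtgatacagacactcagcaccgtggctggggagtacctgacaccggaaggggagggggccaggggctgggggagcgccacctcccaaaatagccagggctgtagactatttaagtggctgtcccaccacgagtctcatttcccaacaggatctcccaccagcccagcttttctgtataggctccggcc
Pvalb, downstream start: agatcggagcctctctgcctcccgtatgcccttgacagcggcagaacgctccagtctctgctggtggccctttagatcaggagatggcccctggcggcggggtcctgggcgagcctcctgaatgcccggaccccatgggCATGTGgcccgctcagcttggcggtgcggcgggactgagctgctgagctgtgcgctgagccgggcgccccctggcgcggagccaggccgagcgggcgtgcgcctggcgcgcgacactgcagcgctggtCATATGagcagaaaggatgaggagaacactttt
Casq1, Casq2 and the downstream start of Pvalb each held 2 E-boxes, and the upstream start of Pvalb held 0. The MEF2 motif was searched on both strands and was found once in Casq2, outside its E-boxes, and once at the upstream start of Pvalb. Of 32851 promoters of the same length, 72.3% held an E-box and 3.19% a MEF2 motif. Among the other members with a promoter in the table, Cacna1s and Pln held 2 E-boxes, Atp2a1 held 1 and Ryr1 held 0. A STAT motif (TTCNNNGAA), found in 8.3% of all promoters, occurred once in Atp2a1 and in none of the other promoters of members, and a forkhead motif (GTAAACA; 3.65% of all promoters) occurred in none of the 8 windows searched, on either strand. These matches describe the letters of the windows only. No promoter was in the table for Sln, Jph1 and Atp2a2.

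Some libraries stood apart and touch several members. 4 libraries listed 15069 to 16389 genes above 0, against 17909 to 19057 in the other 58: cachectic mice 3 and 4 and non-cachectic mouse 5 at 2 weeks, and cachectic mouse 3 at 8 weeks. Mitochondrially encoded transcripts made up 54.4 to 61.5% of their TPM, and 32.5 to 50.1% elsewhere. In cachectic mouse 3 at 8 weeks, the log2 value minus the mean of the other 6 mice was -4.48 for Ryr1, -3.75 for Atp2a1, -3.33 for Cacna1s, -2.41 for Jph1 and -2.13 for Atp2a2. These are the 5 members with the longest transcripts, of 3477 exonic bases or more, whereas the 5 shorter members lay between 0.15 (Casq1) and 0.64 (Pvalb). Over all genes with a length, the median of that difference went from -0.05 for the 906 genes under 1000 exonic bases to -1.60 for the 841 genes of at least 8000. In the class of 2000 to 4000 bases it was -1.12, where Atp2a1 lay at -3.75, Casq2 at 0.35 and Pln at 0.56. Members thus departed from the median of their class in both directions, and the part of length in their differences was not tested. Results are given with and without these 4 libraries. The heart markers summed to 76.1 to 101 TPM in controls and 21.9 to 200.3 TPM in cachectic mice at 8 weeks, most of it Myh6 (66.7 to 94.4 TPM and 16.6 to 189 TPM), while the defining Tnni3 was at 0.445 to 0.742 TPM and 0.259 to 0.8 TPM and Myl7 at 0.259 to 1.76 TPM and 0 to 0.921 TPM. The skeletal muscle markers (8 of 8 detected) summed to 5.49 to 6.82% of TPM in controls and 3.37 to 9.35% in cachectic mice, the lowest being mouse 3. In bulk tissue, fewer cells of a type and less RNA per cell cannot be told apart.

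**Figure D1:**
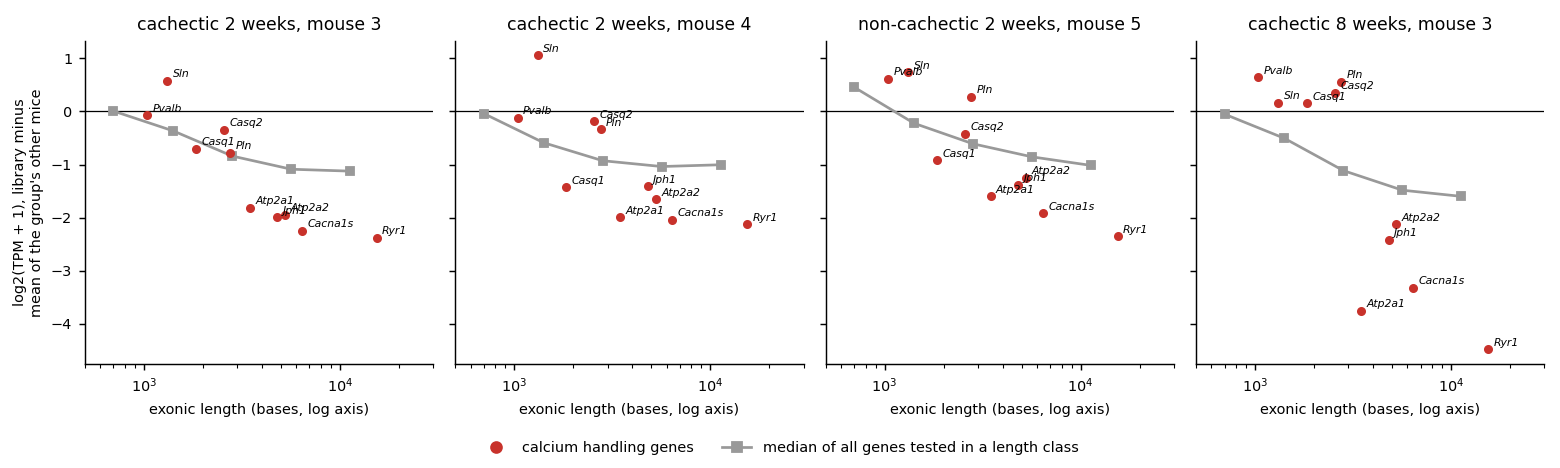
The 4 libraries that list the fewest genes set against the other mice of their condition, as log2(TPM + 1) differences for the 10 members (red) by exonic length in bases (log axis), with the median of all genes tested in each length class (grey). In cachectic mouse 3 at 8 weeks Ryr1 (-4.48), Atp2a1 (-3.75) and Cacna1s (-3.33) lay far below 0, and Pvalb (0.64) and Sln (0.17) did not.

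In the 20 control mice, the fast-fiber pump Atp2a1 led the set with a median of 5879 TPM (range 4046 to 7091), on the length-scaled TPM level. Next came the pump regulator Sln at 1141 TPM (range 747 to 1465), the slow pump Atp2a2 at 807 TPM (range 564 to 1189.7), the cytosolic buffer Pvalb at 731 TPM (range 418 to 1235) and the lumenal buffer Casq1 at 703 TPM (range 558 to 863). Lower levels were those of the release channel Ryr1 at 383 TPM (range 255 to 443), the voltage sensor Cacna1s at 308 TPM (range 206 to 358), Casq2 at 261 TPM (range 219.8 to 375) and Jph1 at 70.2 TPM (range 52.2 to 83.8). Pln closed the order at 5.97 TPM (range 2.89 to 11.8). Neighbours whose ranges overlapped were Sln and Atp2a2, Atp2a2 and Pvalb, Pvalb and Casq1, Ryr1 and Cacna1s, and Cacna1s and Casq2, so their order holds for the medians. All the same, Sln was above Atp2a2, and Ryr1 above Cacna1s, in 20 of 20 mice.

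The diaphragm of cachectic mice at 8 weeks had less mRNA of the calcium buffers and more of sarcolipin. Casq1 was lower than in controls by 1.32 on the log2 scale and Pvalb by 1.58, Casq2 by 0.53, and Sln was higher by 0.72. Those 4 of the 10 members passed the test against control mice and also against mice with the non-cachectic tumor, in the same directions; both comparisons share the cachectic mice. By Dunn's test on ranks 2 of them passed against controls (Casq1 and Pvalb) and 2 against non-cachectic mice (Casq1 and Casq2), and with only the 2 groups in the fit 1 passed against non-cachectic mice (Casq1). Against controls, 1 of 10 members rose, where 6.65% of all 13578 genes tested did, and 3 of 10 fell, where 8.12% did. Against non-cachectic mice, 1 of 10 rose beside 6.75% of all genes and 3 of 10 fell beside 6.19%. The median log2 fold change of the 10 members against controls was -0.37, and that of all genes -0.09. Without the 4 libraries with few genes, Ryr1 and Atp2a1 also rose in both comparisons. Of the 10 members, 3 then rose and 3 fell, where 22.2% and 12.4% of all genes did against controls, and 23.2% and 10.2% against non-cachectic mice. Over all genes, 903 were higher and 1102 lower than in controls, and with mitochondrially encoded genes left out of the TPM sum 775 and 2989, with a median of all genes of -0.20.

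**Figure D2:**
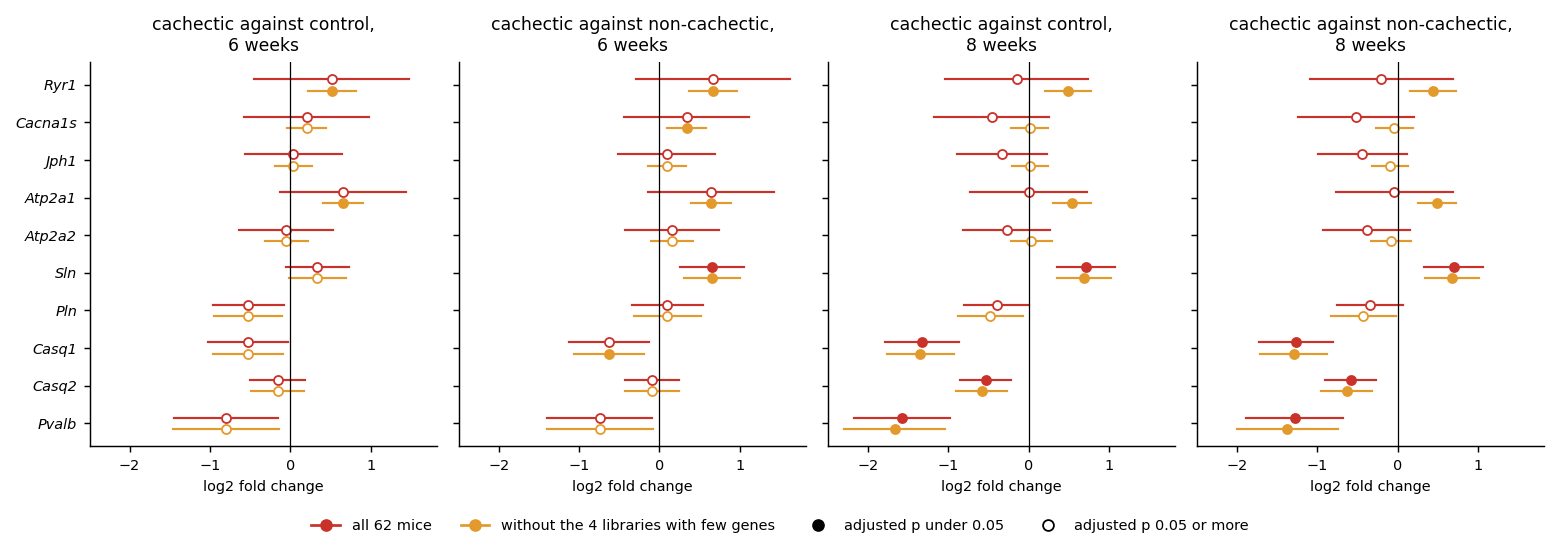
Log2 fold change of each member in cachectic mice against control and non-cachectic mice at 6 and 8 weeks, on log2(TPM + 1), with 95% intervals from limma, for all 62 mice (red) and without the 4 libraries with few genes (orange), filled where the adjusted p was under 0.05. With all mice, at 8 weeks Casq1 (-1.32 against controls), Pvalb (-1.58) and Casq2 (-0.53) lay below 0 and Sln (0.72) above it.

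Casq1, the main calcium buffer in the reticulum of fast fibers, was measured at 696, 819, 863, 788 and 703 TPM in the 5 control mice at 8 weeks. Mice with the non-cachectic tumor had 742, 865, 556, 784 and 814 TPM, and the 7 cachectic mice had a lowest value of 139 TPM, a median of 336 TPM and a highest value of 471 TPM. Every cachectic mouse was below every mouse of both other groups. The difference was -1.32 on the log2 scale (SE 0.23, limma adjusted p = 3.31e-05) against controls and -1.27 on the log2 scale (SE 0.23, limma adjusted p = 6.88e-05) against non-cachectic mice. Against controls, every cachectic mouse was higher for 2.52% of all genes and lower for 3.82%, and among the 10 members Casq1 and Pvalb were wholly lower and Sln wholly higher. Against non-cachectic mice, Casq1, Casq2 and Pvalb were wholly lower, beside 2.42% of all genes. The exact permutation test of the Casq1 difference gave p = 0.00253 (two-sided), the smallest that 7 against 5 mice allow.

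At 6 weeks Casq1 stood at 312, 458, 558, 489 and 449 TPM in cachectic mice, and at 645, 686, 578, 703 and 609 TPM in controls. Non-cachectic mice had 599, 789, 801, 550.0 and 739.6 TPM. All 5 cachectic mice were below all 5 controls, which held for 2.95% of all genes. However, 1 of the cachectic mice, at 558 TPM, was above the lowest non-cachectic mouse. The difference at 6 weeks was -0.53 on the log2 scale (SE 0.25, limma adjusted p = 0.214) against controls and missed the threshold, and against non-cachectic mice it was -0.63 on the log2 scale (SE 0.25, limma adjusted p = 0.135), which passed with the 4 libraries with few genes left out (adjusted p = 0.0262). At 4 weeks the cachectic mice were spread over 278 to 764 TPM, with 2 of 5 under 400 TPM, while controls covered 695 to 772 TPM. Of these cachectic mice, 4 of 5 were below all controls, and 4 of 5 below all non-cachectic mice (639 to 794 TPM). The log2 differences were -0.58 and -0.57 (exact permutation test, two-sided and unadjusted, p = 0.0317 and 0.0397). At 2 weeks cachectic mice covered 329 to 1167 TPM and controls 558 to 849 TPM, and neither week gave a call by limma.

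Casq2, the calsequestrin of heart and slow fibers, was measured at 313, 375, 295, 263 and 238 TPM in controls at 8 weeks. The non-cachectic mice had 280.5, 337, 275, 278 and 359.9 TPM, and the cachectic mice a lowest value of 136 TPM, a median of 213 TPM and a highest value of 255 TPM. All 7 cachectic mice were below the non-cachectic ones, and 5 of 7 were below the lowest control. Casq2 differed by -0.53 on the log2 scale (SE 0.16, limma adjusted p = 0.0138) from controls and by -0.59 on the log2 scale (SE 0.16, limma adjusted p = 0.00694) from non-cachectic mice. In fits that each left out 1 mouse, the call against controls was made in 10 of 12, being lost without cachectic mouse 1 or control mouse 2 (adjusted p up to 0.0722), and with median-ratio scaling of the libraries it was lost (adjusted p = 0.26), as it was by Dunn's test (adjusted p = 0.0559), with a replicate block (adjusted p = 0.0609) and with only the 2 groups fitted (adjusted p = 0.131). Against non-cachectic mice it was lost with median-ratio scaling (adjusted p = 0.167) and with only the 2 groups fitted (adjusted p = 0.094). At 6 weeks Casq2 was at 197 to 297 TPM in cachectic mice and 249.9 to 317 TPM in controls, a difference of -0.16 (95% interval -0.50 to 0.18, limma adjusted p = 0.649).

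Pvalb, the cytosolic buffer that speeds relaxation of fast fibers, had a higher coefficient of variation between mice than both calsequestrins in 10 of 12 conditions, cachectic mice at 2 and 4 weeks being the exceptions. Controls at 8 weeks had 695, 625, 1235, 798 and 875 TPM, and non-cachectic mice 626, 661, 836, 513 and 762 TPM. The 7 cachectic mice had a lowest value of 121 TPM, a median of 374 TPM and a highest value of 415 TPM. Again no cachectic mouse reached the range of either other group, and the spread was wide within cachectic mice, where the lowest 2 values were 121 and 155 TPM. The same 2 mice had the lowest Casq1, at 139 and 189 TPM, and the lowest Casq2, at 136 and 161 TPM. Pvalb fell by 1.58 on the log2 scale against controls (SE 0.30, limma adjusted p = 0.000126) and by 1.28 against non-cachectic mice (SE 0.30, limma adjusted p = 0.00188). The latter call was lost by Dunn's test (adjusted p = 0.133) and with only the 2 groups fitted (adjusted p = 0.052). At 6 weeks it was at 137, 455, 632, 434 and 218 TPM in cachectic mice and 716, 629.8, 519.8, 418 and 615 TPM in controls. Here the groups overlapped, 2 cachectic mice lay below all controls, and the difference was -0.80 (95% interval -1.45 to -0.15, limma adjusted p = 0.133). At 4 weeks cachectic mice (409.7 to 888 TPM) and controls (526 to 955 TPM) covered much the same values.

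**Figure D3:**
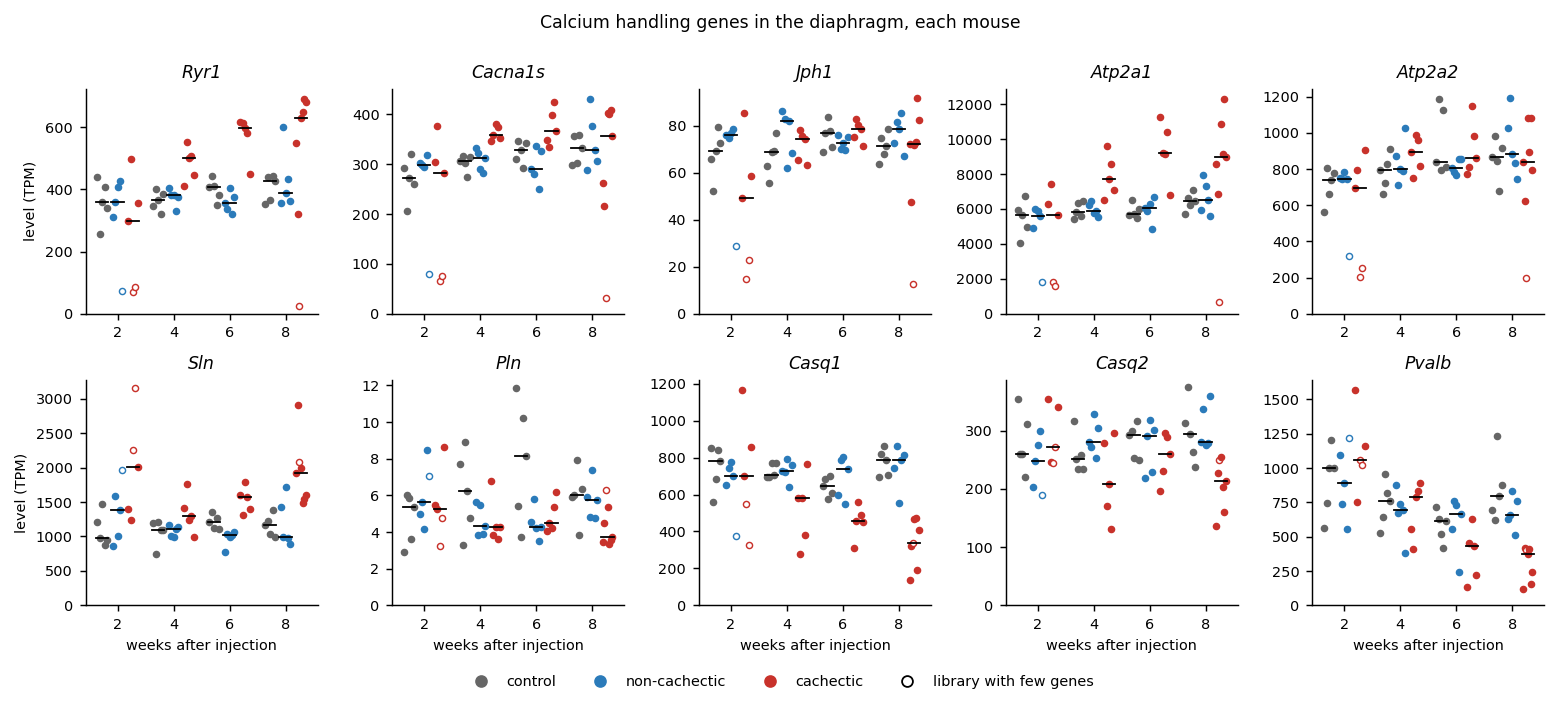
TPM of each member in every mouse (linear axes from 0) by week, with control, non-cachectic and cachectic mice from left to right in each week, open symbols for the libraries with few genes and a line at the median. Casq1 in the 7 cachectic mice at 8 weeks spans 139 to 471 TPM, under the 696 to 863 TPM of controls, while Ryr1 and Atp2a1 are spread out by the open symbol at 24.5 and 689 TPM.

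Sln, the sarcolipin gene whose coding sequence is given above, was the member that rose. At 8 weeks controls had 1162, 1231, 1029.9, 1378 and 985 TPM and non-cachectic mice 1433, 998, 1716, 984 and 892 TPM. In cachectic mice, Sln had a lowest value of 1484 TPM, a median of 1927 TPM and a highest value of 2911 TPM. All 7 cachectic mice were above all 5 controls, as for 2.52% of all genes, while 4 of 7 were above the highest non-cachectic mouse. Differences were 0.72 on the log2 scale (SE 0.18, limma adjusted p = 0.00409) and 0.69 on the log2 scale (SE 0.18, limma adjusted p = 0.00607), the former called in 12 of 12 fits that each left out 1 mouse. Dunn's test called neither (adjusted p = 0.0617 and 0.0722), and the call against non-cachectic mice was also lost with quantile normalization (adjusted p = 0.0513) and with only the 2 groups fitted (adjusted p = 0.0964). At 6 weeks cachectic mice had 1607, 1315, 1785, 1578 and 1405 TPM, controls 1215, 1355, 1120.0, 1268 and 1111 TPM and non-cachectic mice 773, 1035, 995, 1015 and 1071 TPM. Sln was then above all non-cachectic mice in 5 of 5 cachectic mice, as for 13.6% of all genes, and above all controls in 4 of 5. It passed the test against non-cachectic mice (log2 fold change 0.65, SE 0.20, limma adjusted p = 0.0342) and not against controls (log2 fold change 0.34, 95% interval -0.06 to 0.73, limma adjusted p = 0.343). The former call was made in 3 of 10 fits that each left out 1 mouse, and was lost without any of cachectic mice 1, 3 and 4 or non-cachectic mice 1 to 4 (adjusted p up to 0.118). Of the 10 members Sln was the only one that rose in that comparison with all libraries, where 4.28% of all genes did.

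Pln, the phospholamban gene best known from heart, stayed at a few TPM in every condition. Controls at 8 weeks had 5.93, 6.03, 7.93, 3.86 and 6.38 TPM, non-cachectic mice 5.89, 4.81, 7.38, 4.75 and 5.74 TPM and cachectic mice a lowest value of 3.35 TPM, a median of 3.72 TPM and a highest value of 6.30 TPM. In 5 of 7 cachectic mice the value was under 5 TPM, as in 1 of 5 controls, and the groups overlapped. The difference was -0.40 (95% interval -0.81 to 0.01, limma adjusted p = 0.194) against controls and -0.35 (95% interval -0.75 to 0.06, limma adjusted p = 0.292) against non-cachectic mice. With the 4 libraries left out it was -0.48 (95% interval -0.88 to -0.08, limma adjusted p = 0.058) against controls, short of the threshold, and it passed at adjusted p = 0.044 once the remaining libraries were also rescaled by median ratios, an alternative chosen after seeing the data.

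Among the release genes, Ryr1 stood above both other groups in every cachectic mouse at 4 and 6 weeks, short of the threshold, and its sign at 8 weeks rested on 1 library. At 4 weeks Ryr1, the release channel, was at 411, 554, 502, 508 and 446 TPM in cachectic mice, 348, 400.2, 366, 319.6 and 386 TPM in controls and 406, 381, 381, 329.6 and 375 TPM in non-cachectic mice. At 6 weeks it was at 616, 614, 598, 582 and 449.6 TPM, against 406, 443, 409.8, 350.1 and 381 TPM in controls and 358, 337, 404, 319 and 377 TPM in non-cachectic mice. No cachectic mouse overlapped with either other group at 4 or at 6 weeks. Over all genes, every cachectic mouse was higher than every control for 4.91% at 4 weeks and 15.9% at 6 weeks. Against non-cachectic mice these shares were 5.52% and 13.6%. By limma the differences against controls were 0.41 (95% interval -0.56 to 1.37, limma adjusted p = 1) at 4 weeks and 0.52 (95% interval -0.45 to 1.48, limma adjusted p = 0.596) at 6 weeks, neither past the threshold. With the 4 libraries with few genes left out of the fit, none of which is a mouse of these weeks, the shared spread was smaller and the same 6-week difference had an adjusted p = 0.00694, while the 4-week difference had 0.142.

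At 8 weeks Ryr1 in cachectic mice had a lowest value of 24.5 TPM, a median of 628 TPM and a highest value of 691 TPM, while controls had 354, 439.5, 366, 443 and 426 TPM. The lowest value was that of mouse 3, one of the libraries with few genes, and mouse 2 followed at 321 TPM. The other 5 mice, at 549.9 TPM or more, were above all controls, and the highest non-cachectic mouse, at 601 TPM, was above 1 of those 5. The difference against controls was -0.15 (95% interval -1.04 to 0.74, limma adjusted p = 0.879) with all mice and 0.49 (95% interval 0.21 to 0.78, limma adjusted p = 0.00541) without the 4 libraries, so its sign depended on them. Without them the rise also passed with median-ratio scaling (0.43, adjusted p = 0.00889) but not with quantile normalization (0.28, adjusted p = 0.123) or with mitochondrially encoded genes left out (0.32, adjusted p = 0.0588).

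Cacna1s, the voltage sensor's pore subunit, was at 348, 358, 381, 374 and 353 TPM in cachectic mice at 4 weeks. These values were above all controls (274 to 316 TPM), as for 4.91% of all genes, and all non-cachectic mice (282 to 332 TPM), as for 5.52%. The difference was small, 0.26 (95% interval -0.52 to 1.04, limma adjusted p = 1) against controls. At 6 weeks its range in cachectic mice was 334 to 425 TPM and in controls 292 to 346 TPM, which overlapped. At 8 weeks it was 32.2 to 409 TPM and 298 to 358 TPM, with a difference of -0.46 (95% interval -1.18 to 0.26, limma adjusted p = 0.445), or 0.02 (95% interval -0.21 to 0.25, limma adjusted p = 0.938) without the 4 libraries. Jph1, the membrane tether, showed no difference past the threshold from 4 weeks on. It was at 71.4 ± 5.73 TPM (SD, n = 5) in controls and 64.6 ± 26.6 TPM (SD, n = 7) in cachectic mice at 8 weeks, where mouse 3 had 12.7 TPM, and the difference without the 4 libraries was 0.01 (95% interval -0.21 to 0.24, limma adjusted p = 0.95).

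Atp2a1, the SERCA1 pump of fast fibers, was, like Ryr1, highest in cachectic mice at 4 and 6 weeks. Cachectic mice had 6534, 9576, 7692, 8548 and 7059 TPM at 4 weeks and 11282, 9224, 9135, 10388 and 6820.5 TPM at 6 weeks. Controls had 5410.4, 5827, 6335, 5614 and 6464 TPM at 4 weeks and 5668, 6522, 5700.2, 5501 and 6017 TPM at 6 weeks. Non-cachectic mice stayed at 5539 to 6449.9 TPM and 4846 to 6659.5 TPM. At both weeks the lowest cachectic mouse was above the highest mouse of either other group. Against controls this held for 4.91% of all genes at 4 weeks and 15.9% at 6 weeks, and against non-cachectic mice for 5.52% and 13.6%. The difference against controls was 0.40 (95% interval -0.39 to 1.19, limma adjusted p = 1) at 4 weeks and 0.65 (95% interval -0.13 to 1.44, limma adjusted p = 0.359) at 6 weeks, and without the 4 libraries the latter had an adjusted p = 9.82e-05. The libraries differed in composition at these weeks. Mitochondrially encoded genes made up 39.6 to 45.6% of TPM in cachectic mice and 43.8 to 48.2% in controls at 4 weeks, and 34.3 to 44.9% and 44.9 to 47.9% at 6 weeks, while the skeletal muscle markers summed to 6.11 to 7.15% and 5.45 to 6.02% at 4 weeks, and 6.51 to 8.93% and 5.44 to 6.92% at 6 weeks. With mitochondrially encoded genes left out of the TPM sum, the 6-week differences against controls were 0.35 for Ryr1 and 0.49 for Atp2a1, beside a median of all genes of 0.03 in place of 0.17. The part of muscle content in these differences was not tested. In cachectic mice at 8 weeks Atp2a1 had a lowest value of 689 TPM, a median of 8949 TPM and a highest value of 12308 TPM, and in controls 5700.4, 6651, 6216, 7091 and 6455 TPM. The lowest was again mouse 3, the next lowest, mouse 2 at 6851 TPM, lay within the controls, and the other 5 lay above them. The difference, -1.5e-05 (95% interval -0.73 to 0.73, limma adjusted p = 1), turned into 0.54 (95% interval 0.30 to 0.77, limma adjusted p = 0.000352) without the 4 libraries, and against non-cachectic mice -0.04 turned into 0.49 (95% interval 0.25 to 0.73, limma adjusted p = 0.000996). The rise without the 4 libraries passed under each of the 3 other scalings, at 0.36 to 0.47 against controls.

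Atp2a2, the SERCA2 pump of slow fibers, gave no call at any week. It was at 858 ± 113 TPM (SD, n = 5) in controls, 937 ± 176 TPM (SD, n = 5) in non-cachectic mice and 788 ± 306 TPM (SD, n = 7) in cachectic mice at 8 weeks. The groups overlapped, and the difference against controls without the 4 libraries was 0.03 (95% interval -0.22 to 0.29, limma adjusted p = 0.884).

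At 6 weeks, 0 of the 10 members passed the limma test against controls, where 6.79% of all genes did, with 3 members (Pln, Casq1 and Pvalb, all lower) at an unadjusted p under 0.05 and 0 called by Dunn's test on ranks. Genes tested were 763 higher and 159 lower, and with median-ratio scaling 464 higher and 545 lower, since that scaling moved the median of all genes from 0.17 to 0.01. Without the 4 libraries, Ryr1 and Atp2a1 rose against controls beside 26.9% of all genes. Against non-cachectic mice, Ryr1, Cacna1s, Atp2a1 and Sln rose beside 22.1%, and Casq1 fell beside 5.18%. With every cachectic mouse outside the other group, Ryr1 and Atp2a1 were higher than all controls, beside 15.9% of all genes, and Casq1 was lower, beside 2.95%. Against non-cachectic mice this held for Ryr1, Atp2a1 and Sln, beside 13.6%.

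At 4 weeks no member passed the limma test against controls (0.0221% of all genes did) or against non-cachectic mice (0.0295%), with 1 and 2 members at an unadjusted p under 0.05 and 0 by Dunn's test. Ryr1, Cacna1s and Atp2a1 were nevertheless higher in each of the 5 cachectic mice than in every control, which held for 4.91% of all genes, and than in every non-cachectic mouse, which held for 5.52%. At 2 weeks Sln was higher in cachectic mice than in controls (log2 fold change 0.82, SE 0.20, limma adjusted p = 0.007), where 1.41% of all genes rose, and Jph1 was lower (log2 fold change -0.78, SE 0.30, limma adjusted p = 0.0455), where 27.8% fell. Both calls rested on the libraries with few genes: cachectic mice 3 and 4 had 2257 and 3147 TPM of Sln and 15.0 and 22.9 TPM of Jph1, against 1394, 1238 and 2011 TPM and 49.3, 85.6 and 58.5 TPM in mice 1, 2 and 5, and without the 4 libraries 0 of 10 members passed. Against non-cachectic mice at 2 weeks 0 members passed beside 0.0% of all genes, with 2 at an unadjusted p under 0.05 and 0 by Dunn's test.

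Mice with the non-cachectic tumor showed no member past the threshold. The limma test of non-cachectic against control mice called 0 members at 2, 4, 6 and 8 weeks, where 4.43%, 0.0%, 0.0% and 0.0% of all genes passed. At an unadjusted p under 0.05 there were 0, 0, 1 and 0 members, and Dunn's test called 0. The member with the unadjusted p was Pln at 6 weeks (log2 fold change -0.62, 95% interval -1.06 to -0.18, limma adjusted p = 1). Sln at 6 weeks, at 773 to 1071 TPM in non-cachectic mice, was below all 5 controls (1111 to 1355 TPM) with a difference of -0.32 (95% interval -0.71 to 0.08, limma adjusted p = 1), and 0.14% of all genes were wholly lower in the same way. For Casq1 at 8 weeks the difference was -0.05 (95% interval -0.55 to 0.45, limma adjusted p = 1), and for Pvalb -0.29 (95% interval -0.94 to 0.36, limma adjusted p = 1).

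The course over time was tested on the difference itself. The difference between cachectic and control mice was more negative at 8 than at 2 weeks for 2 of 10 members, Casq1 (log2 fold change -1.17, SE 0.34, limma adjusted p = 0.0334) and Pvalb (log2 fold change -1.89, SE 0.44, limma adjusted p = 0.00967), where 0.589% of all genes were. Without the 4 libraries, 3 of which are of the 2-week mice, Pln and Casq2 passed as well, beside 5.91% of all genes. Both calls were lost with array weights (adjusted p = 0.0649 for Casq1 and 0.132 for Pvalb), with a replicate block (0.117 and 0.0588), with only the 4 conditions fitted (0.401 and 0.107) and without the 5 libraries with the highest liver markers, 3 of them 2-week controls (0.637 and 0.197). The array weight of cachectic mouse 5 at 2 weeks, a library with 18059 genes above 0, was 1.49e-09, so that mouse hardly counted in that fit. In fits that each left out 1 mouse, Casq1 was called in 14 of 22 and Pvalb in 22 of 22. For 8 against 4 weeks and 8 against 6 weeks limma called 0 members, beside 0.0% and 0.0% of all genes, with 2 and 1 members at an unadjusted p under 0.05; Dunn's test has no such contrast. For Pvalb the former was -1.46 (95% interval -2.35 to -0.57, limma adjusted p = 0.322). Inside the cachectic group, Pvalb fell from 4 to 8 weeks (log2 fold change -1.28, SE 0.30, limma adjusted p = 0.0128), where 0.773% of all genes did, a call lost without cachectic mouse 3 or mouse 5 of 4 weeks (adjusted p up to 0.0695). Over the same weeks limma called 0 members in non-cachectic mice and 0 in controls, beside 0.0% and 0.0% of all genes, with 0 at an unadjusted p under 0.05 and 0 by Dunn's test in both.

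Ratios between members of the same mouse do not depend on the scaling of the library. The ratio of Casq1 to Casq2 in controls at 8 weeks was 2.19 to 2.99, with a median of 2.93, and in cachectic mice 1.02 to 2.31, with a median of 1.42. It was below all controls in 6 of 7 cachectic mice, with a mean log2 difference of -0.79 (exact permutation test, two-sided, p = 0.00758). At 6 weeks it was 1.59 to 1.98, with a median of 1.73 in cachectic mice and 2.20 to 2.44, with a median of 2.28 in controls. All 5 cachectic mice were below all controls and below all non-cachectic mice, with mean log2 differences of -0.37 and -0.53 (exact p = 0.00794 for each, the smallest that 5 against 5 mice allow). The ratio of Atp2a1 to Atp2a2 at 6 weeks was 7.91 to 14.6, with a median of 10.6 in cachectic mice and 4.89 to 7.43, with a median of 6.75 in controls, above all controls in 5 of 5 mice (mean log2 difference 0.70, exact p = 0.00794). Over the 32 ratio tests made (4 ratios, 2 comparisons, 4 weeks), the lowest Benjamini-Hochberg adjusted p was 0.0508, so 0 ratios passed the threshold after the exact tests, and 6 had an unadjusted exact p under 0.05. Since 5 against 5 mice allow no exact p under 0.00794, a single such test could not pass over 32 tests, however far apart its groups.

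Sln relative to the summed pumps was 0.115 to 2.35, with a median of 0.167, in cachectic mice at 8 weeks, where the highest ratio was that of mouse 3. Controls had 0.134 to 0.177, with a median of 0.161, and the exact permutation p was 0.331. Pln relative to Atp2a2 was 0.0033 to 0.0317, with a median of 0.00469 in cachectic mice and 0.00567 to 0.00939, with a median of 0.00684 in controls (exact permutation p = 0.745). Neither ratio separated the groups at any week.

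**Figure D4:**
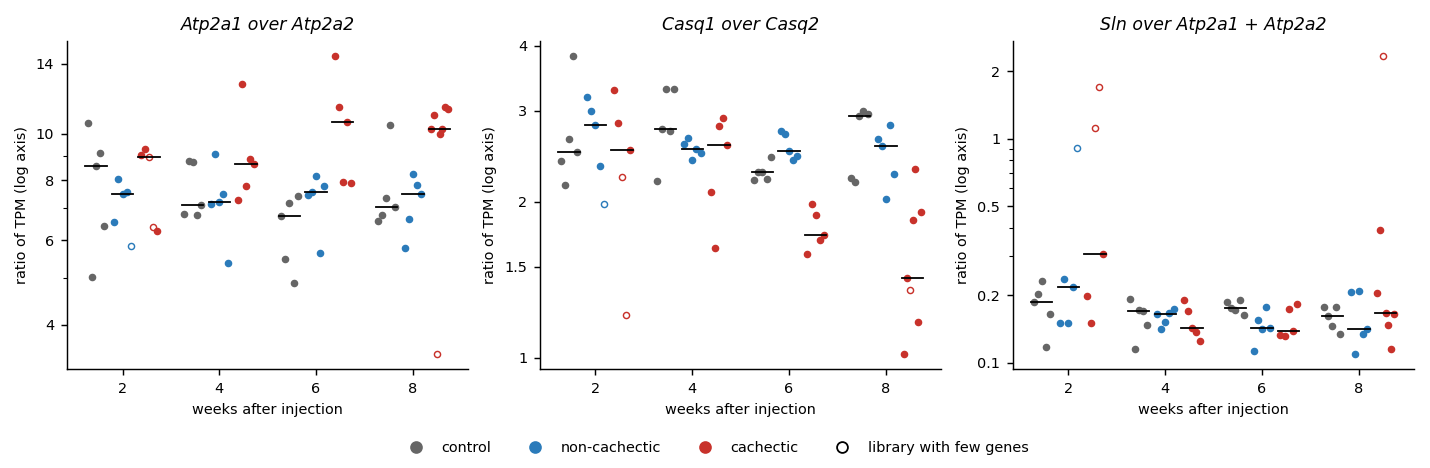
The ratios of Atp2a1 to Atp2a2, of Casq1 to Casq2 and of Sln to both pumps in each mouse (ratios of TPM, log axes) by week, with control, non-cachectic and cachectic mice from left to right, open symbols for the libraries with few genes and a line at the median. The ratio of Casq1 to Casq2 has a median of 1.42 in cachectic mice at 8 weeks and 2.93 in controls.

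Other genes of the pathway were counted by list against controls, beside a median of all genes of 0.17 at 6 and -0.09 at 8 weeks. Of all genes 5.62% rose and 1.17% fell at 6 weeks, and 6.65% and 8.12% at 8 weeks, while without the 4 libraries 26.9% rose and 4.29% fell at 6 weeks, and 22.2% and 12.4% at 8 weeks. The lists are small, and their counts are given as descriptions beside these shares. Of the 18 further genes of the voltage sensor and release complex, 3 of 18 rose and 0 fell at 6 weeks, and 3 of 18 rose and 3 fell at 8 weeks (median log2 fold change -0.18), or, without the 4 libraries, 7 rose and 5 fell. The risers were the same 3 genes at both weeks. Cacng1, the gamma subunit of the voltage sensor, differed by 1.22 on the log2 scale (limma adjusted p = 0.00517) at 6 weeks and 1.46 on the log2 scale (limma adjusted p = 8.26e-05) at 8 weeks. Tmem38b, a potassium channel of the reticulum that balances charge during release, had 0.93 on the log2 scale (limma adjusted p = 0.000144), and Trdn, the triadin that ties calsequestrin to the release channel, 0.45 on the log2 scale (limma adjusted p = 8.59e-05). Jph2, the junctophilin shared with heart, was the lowest at 8 weeks with -1.50 on the log2 scale (limma adjusted p = 0.00288), a difference of -1.15 (adjusted p = 4.32e-07) without the 4 libraries. Calm3, a calmodulin gene, had -0.67 on the log2 scale (limma adjusted p = 0.0383) and Stac3, an adaptor of the voltage sensor, -0.55 on the log2 scale (limma adjusted p = 0.038). In mouse levels, Cacng1 was at 24.4 to 39.4 TPM in controls and 29.9 to 186 TPM in cachectic mice at 8 weeks, and Jph2 at 129.6 to 159.9 TPM and 10.7 to 92.0 TPM.

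The lists around the pumps and the surface membrane were counted beside the same shares of all genes. Of the 5 pump partners and lumenal proteins tested, and of the 7 genes of mitochondrial calcium uptake tested, 0 passed at 6 or at 8 weeks by limma with all libraries, whereas without the 4 libraries 1 and 2 rose at 6 weeks, and 0 and 3 rose and 0 and 1 fell at 8 weeks. Among 12 genes of surface calcium exchange and store-operated entry, Orai2, a pore subunit of store-operated channels, rose at 6 weeks (log2 fold change 0.65, limma adjusted p = 0.0104) and Atp2b3, a calcium pump of the surface membrane, fell at 8 weeks (log2 fold change -0.54, limma adjusted p = 0.00857), with 1 up and 2 down at 8 weeks without the 4 libraries. Among 10 genes of the tubule membrane and its excitability, Cav3, the muscle caveolin, rose at 6 and 8 weeks (log2 fold change 0.69, limma adjusted p = 0.000663 and, at 8 weeks, log2 fold change 0.44, limma adjusted p = 0.0109). Atp1b1, a beta subunit of the sodium pump, fell at 8 weeks (log2 fold change -0.65, limma adjusted p = 0.0271). Of 14 calcineurin and CaM kinase genes, 0 passed at 6 weeks and Camk2a, a kinase activated by calcium and calmodulin, fell at 8 weeks (log2 fold change -0.92, limma adjusted p = 0.0401). Without the 4 libraries, 3 genes of the tubule membrane rose and 2 fell at 8 weeks, and 0 and 3 of the calcineurin and CaM kinase list.

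**Figure D5:**
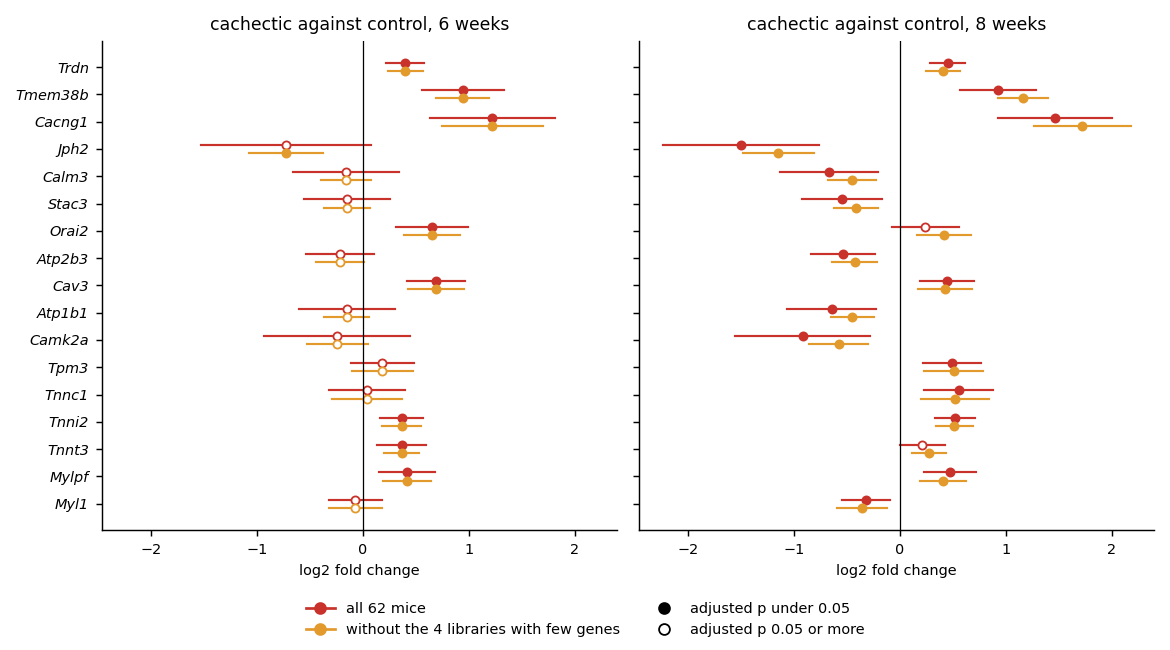
Log2 fold change (log2 of TPM + 1) of the named genes from the pathway lists in cachectic against control mice at 6 and 8 weeks, with 95% intervals from limma, for all 62 mice (red) and without the 4 libraries with few genes (orange), filled where the adjusted p was under 0.05. With all mice Cacng1 lies highest at 8 weeks (1.46) and Jph2 (-1.50) lowest.

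Several members differ between fast and slow fibers, so the myosin heavy chains that define fiber types were set beside them, with the sarcomere lists read against the same shares of all genes (6.65% up and 8.12% down at 8 weeks, or 22.2% and 12.4% without the 4 libraries). With all libraries, none of Myh7, Myh2, Myh1 and Myh4 passed the limma test against either group at 6 or 8 weeks. At 4 weeks every cachectic mouse had more Myh1 (6336 to 10654 TPM) than every control (highest 5563 TPM) and non-cachectic mouse (highest 5479 TPM). Over all genes this held for 4.91% and 5.52%. At 6 weeks, with 6012 to 11887 TPM, all were above every control (highest 5934 TPM), as for 15.9% of all genes. The highest non-cachectic mouse, at 6046 TPM, was above the lowest cachectic one. Ranges of Myh7, Myh2 and Myh4 in cachectic mice overlapped with both other groups at both weeks. Before adjustment, Myh1 against controls at 6 weeks (limma unadjusted p = 0.0369) and Myh2 against non-cachectic mice at 8 weeks (limma unadjusted p = 0.0447) were under 0.05. The latter comparison includes cachectic mouse 3, a library with few genes. Results of Dunn's test are not given here for the myosins. The log2 fold changes against controls at 8 weeks were -0.02 (95% interval -0.76 to 0.72, limma adjusted p = 0.983) for Myh7 of slow fibers, -0.43 for Myh2, 0.37 for Myh1 and -1.21 (95% interval -2.82 to 0.39, limma adjusted p = 0.35) for Myh4 of the fastest fibers. Myh4 was at 51.5 to 499 TPM in controls and 26.9 to 228 TPM in cachectic mice. These fits include cachectic mouse 3, and fits of single myosins without the 4 libraries are not given here. The lowest cachectic values at 8 weeks were far below the medians: 560 beside 7840 TPM for Myh1, 62.3 beside 508 TPM for Myh7 and 666 beside 3429 TPM for Myh2. Controls had medians of 5203, 444 and 3479 TPM. The part of mouse 3 in the myosin differences was not tested. Of 7 slow sarcomere genes, 2 of 7 rose and 0 fell at 8 weeks, namely Tnnc1 (log2 fold change 0.55, limma adjusted p = 0.0144) and Tpm3 (log2 fold change 0.49, limma adjusted p = 0.00886), parts of the slow thin filament, and 0 passed at 6 weeks. Of 9 fast sarcomere genes, 3 of 9 rose and 0 fell at 6 weeks (Tnni2, Tnnt3 and Mylpf, at 0.37 to 0.42 on the log2 scale). Of all genes 5.62% rose and 1.17% fell at that week. At 8 weeks 2 of 9 rose and 1 fell, with Tnni2, the fast troponin I, at 0.52 on the log2 scale (limma adjusted p = 6.33e-05), Mylpf at 0.47 on the log2 scale (limma adjusted p = 0.00515) and Myl1 at -0.32 on the log2 scale (limma adjusted p = 0.0495), and without the 4 libraries 4 rose and 1 fell. Adipocyte markers summed to 108 to 609.7 TPM in controls and 259 to 2292 TPM in cachectic mice at 8 weeks, and liver markers to 0.864 to 318 and 4.51 to 2221 TPM. Their part in the members' differences was not tested.

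Across all 62 mice Ryr1, Cacna1s and Atp2a1 varied together more closely than Jph1 did with any of them. Spearman's rho, given as a description over mice that share conditions and library quality, was 0.85 between Ryr1 and Cacna1s, 0.84 between Ryr1 and Atp2a1, and 0.68 between Casq1 and Casq2. Without the 4 libraries with few genes these were 0.81, 0.81 and 0.68. Cacna1s and Atp2a1 had 0.79, whereas Jph1 had 0.57 with Ryr1, 0.57 with Cacna1s and 0.51 with Atp2a1, or 0.47, 0.47 and 0.41 without the 4 libraries. Casq1 and Pvalb had 0.49, and Sln and Casq1 -0.56. Over all genes tested, and by rho over the same 62 mice, the patterns nearest to that of Ryr1 were Sptb (0.94) and Tln2 (0.89), and those nearest to Atp2a1 were Gpi1 (0.93) and Abcf1 (0.92). Casq1 was most like Lynx1 (0.87) and Ak1 (0.87), and Casq2 like Asph (0.79) and Ank1 (0.77). For Pvalb the nearest were Cib2 (0.73) and Ramp1 (0.70), and for Sln Eif3m (0.85) and Mgst3 (0.85). Nearest to Cacna1s were Nomo1 (0.88) and Drosha (0.86), to Jph1 Ep300 (0.79) and Adcy9 (0.79), to Atp2a2 Ncam1 (0.70) and Slco3a1 (0.69) and to Pln Gm5532 (0.63) and Cda (0.59).

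Positions on GRCm38 are those of the GENCODE annotation. Ryr1 lies at chr7:29003344-29125179 (- strand) with an exonic length of 15445 bases, the longest of the set, and Pvalb at chr15:78191114-78206400 (- strand) with 1041, the shortest. Casq1 lies at chr1:172209894-172219868 (- strand), Casq2 at chr3:102086415-102146514 (+ strand) and Sln at chr9:53850164-53854560 (+ strand). The pumps lie at chr7:126445858-126463108 (Atp2a1, - strand) and chr5:122453513-122502225 (Atp2a2, - strand), Cacna1s at chr1:136052750-136119822 (+ strand), Jph1 at chr1:16964560-17097889 (- strand) and Pln at chr10:53337667-53345987 (+ strand). In 7 of the 10, an exon overlaps one of a gene on the opposite strand: Rabep2 for Atp2a1, Gm43361 for Atp2a2, Gm37759 for Cacna1s, Gm17224 for Casq1, Gm28376 for Jph1, Gm47644 for Pln, and Gm26604 and Gm44408 for Ryr1. Whether reads were counted by strand is not given in the sources used here, so the share of such reads in these values is uncertain.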

How the data were processed

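RNA was extracted from the diaphragms with Trizol, and libraries were made with an Illumina TruSeq kit (stranded mRNA per the labels, RNA Sample Prep v2 per the methods of the study) and sequenced on an Illumina NovaSeq. The authors trimmed and filtered reads, mapped them to GRCm38 (mm10) in CLC Genomics Workbench, and deposited TPM per gene and mouse as computed by its RNA-Seq tool. The annotation release, strand setting and handling of multiply mapped reads are not given in the sources used here. The study's methods name Kruskal-Wallis and Dunn's tests; Dunn's test was run anew on the TPM as an alternative, no test result of the authors was used, and no other column of per-sample values was present.

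TPM were transformed to log2(TPM + 1), and the 13578 genes that reached 1 TPM in 5 or more mice were tested. limma 3.58.1 (R 4.3.3) fitted a mean per condition over the 12 conditions with a trended prior, and 18 contrasts were adjusted by the Benjamini-Hochberg method over all genes tested, at a threshold of 0.05. Ratios and single values were compared by exact two-sided permutation tests. The scripts were tested on simulated data. Replicate numbers of the labels were checked for pairing by the correlation of deviations from the group means: in no comparison did every pair exceed 0.1, so the fit had no block.

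The 10 members, the pathway and marker lists and the comparisons were chosen with earlier results of these data known. Named genes were the members, up to 3 risers and 3 fallers per list by size of log2 fold change past an adjusted p of 0.05 against controls at 6 or 8 weeks, the 2 genes most correlated with each member over 62 mice, and Myh7, Myh2, Myh1 and Myh4. Libraries with under 17000 genes above 0 were those called libraries with few genes, and the 5 with a mean log2(TPM + 1) of the liver markers over 7 (3 control and 1 cachectic of 2 weeks, 1 cachectic of 6 weeks) those with liver markers. 1 gene of the pathway lists is not reported here and was left out of their counts. Gene positions, lengths and coding sequences came from GENCODE (96.86% of the genes tested had a length by symbol) and promoters from RefSeq, matched by symbol for 7 of 10 members. Alternatives were other pseudocounts, filters, scalings, array weights, a replicate block, Dunn's test, fits of only the groups compared, and leaving out libraries. Tables and figures used Python 3.11.15 with pandas 2.3.3, numpy 2.4.6 and matplotlib 3.10.9.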

Additional observations from a re-analysis of the deposited data

Results flagged for a closer look

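Single mice stood far from the others of their condition by Dixon's ratio in 16 of the 120 member and condition groups tested, where chance marks about 1 in 20. Of these, 11 were the libraries with few genes. Cachectic mouse 3 at 8 weeks was lowest for Ryr1 (24.5 TPM), Cacna1s (32.2 TPM), Jph1 (12.7 TPM), Atp2a1 (689 TPM) and Atp2a2 (198 TPM). Non-cachectic mouse 5 at 2 weeks was lowest for Ryr1 (72.6 TPM), Cacna1s (79.2 TPM), Jph1 (28.9 TPM), Atp2a1 (1846 TPM), Atp2a2 (317 TPM) and Casq1 (377 TPM).

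Others were in libraries with an ordinary number of genes. Ryr1 was lowest in cachectic mouse 5 at 6 weeks (449.6 TPM), Sln in non-cachectic mouse 1 at 6 weeks (773 TPM) and in control mouse 2 at 4 weeks (747 TPM), and Pvalb in non-cachectic mouse 4 at 6 weeks (241 TPM), while Pln was highest in cachectic mouse 1 at 4 weeks (6.80 TPM). The difference between cachectic and control mice changed between 2 and 8 weeks by limma's test of that contrast for Casq1 (-1.17 on the log2 scale) and Pvalb (-1.89). Of the mice compared there, 2 cachectic ones at 2 weeks and 1 at 8 weeks were libraries with few genes, and without them the contrasts were -1.62 and -2.02. Both calls were lost with array weights, with a replicate block, with only the 4 conditions fitted, or without the 5 libraries with liver markers (-0.91 and -1.97), and Casq1 was called in 14 of 22 fits that each left out 1 mouse.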

How the results depend on the processing

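Counts of members called stayed within 1.5 times of the reported ones in 195 of 251 alternatives and moved further in 56. The 195 include contrasts with 0 members called under both settings, so they do not measure how stable the reported calls were. Single members and ratios kept their side of the threshold in 2505 values, 228 of which changed sign without being called under either setting, lost a call in 52, gained one in 99, and changed sign with a call under one of the settings in 18. For cachectic against control mice at 2 weeks the count of 2 became 1 with no filter, median-ratio scaling or quantile normalization, and 0 with array weights, only the groups compared, Dunn's test, or without the libraries with few genes (under each scaling) or with liver markers. At 4 weeks array weights raised the count from 0 to 3 against controls and against non-cachectic mice. These weights were very uneven, from 1.49e-09 (cachectic mouse 5 at 2 weeks) to 10.98 (non-cachectic mouse 3 at 2 weeks). At 6 weeks against controls it went from 0 to 4 with array weights or only the groups compared, and to 2 without the libraries with few genes (4 under each of the 3 other scalings). Against non-cachectic mice the count of 1 at 6 weeks became 0 with no filter, median-ratio scaling or Dunn's test, and 5 with array weights, only the groups compared or without the libraries with few genes (4 with median-ratio scaling as well). At 8 weeks the count of 4 against controls became 2 by Dunn's test (Casq1 and Pvalb) and 7 without the libraries with few genes and with median-ratio scaling, and that against non-cachectic mice became 1 with only those groups, 2 by Dunn's test (Casq1 and Casq2) and 7 without the libraries with few genes and without mitochondrially encoded genes. The 8 against 2 weeks contrast went from 2 to 0 with array weights, with only its 4 conditions or without libraries with liver markers, and to 4 without the libraries with few genes. That of 8 against 4 weeks went from 0 to 2 with array weights and 1 without the libraries with few genes under the 3 other scalings. Within cachectic mice from 4 to 8 weeks the count of 1 became 0 with median-ratio scaling, only those groups or Dunn's test, 5 with array weights, and 3 without the libraries with few genes (2 under each of the 3 other scalings). The settings that join library removal with another scaling were chosen after seeing the data, and the cause of these moves was not tested.

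Signs changed with a call under the alternative for Ryr1 and Atp2a1, both below 0 with all libraries. The array weight of cachectic mouse 3 at 8 weeks was 5.83e-05, so the fit with array weights all but left out that library. At 8 weeks against controls Ryr1 was 0.66 with array weights, 0.49 without the libraries with few genes and 0.43 when median-ratio scaling was added, and Atp2a1 0.56, 0.54 and 0.47, or 0.44 with quantile normalization and 0.36 without mitochondrially encoded genes. Against non-cachectic mice Ryr1 was 0.64, 0.44 and 0.35, and Atp2a1 0.57, 0.49, 0.41, 0.50 and 0.32. From 4 to 8 weeks in cachectic mice array weights gave 0.42 for Ryr1 and 0.33 for Atp2a1. Uncalled values that changed sign without the libraries with few genes included, against controls, Cacna1s (-0.46 to 0.02), Jph1 (-0.33 to 0.01) and Atp2a2 (-0.27 to 0.03) at 8 weeks and Ryr1 (-0.83 to 0.08), Cacna1s (-0.61 to 0.25), Atp2a1 (-0.51 to 0.25), Atp2a2 (-0.55 to 0.17), Casq1 (-0.15 to 0.27) and the ratio of Casq1 to Casq2 (-0.21 to 0.11) at 2 weeks.

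Leaving out each mouse in turn gave 0 to 4 members against controls and 0 to 2 against non-cachectic mice at 2 weeks, 0 in both comparisons at 4 weeks, 0 to 1 in both at 6 weeks, and 3 to 4 against controls and 4 throughout against non-cachectic mice at 8 weeks. It gave 1 to 6 for 8 against 2 weeks (6 without cachectic mouse 3 of 8 weeks, and 1 without cachectic mouse 5, control mouse 2 or control mouse 5 of 2 weeks, or cachectic mouse 1 or 6 or control mouse 1, 2 or 3 of 8 weeks), 0 for the other contrasts of differences, 0 to 2 within cachectic mice, and 0 elsewhere.

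A replicate block was fitted although no comparison met the rule that every pair exceed 0.1: same-numbered deviations correlated at -0.63 to 0.39. At 8 weeks 4 of 5 pairs of cachectic and control mice exceeded 0.1 (median 0.115), and 3 of 5 pairs of cachectic and non-cachectic mice (median 0.106). In every other comparison at most 2 of 5 pairs did, so the rule does not exclude pairing at 8 weeks. Replicates 6 and 7 of cachectic mice at 8 weeks have no partner and then carry no weight. With the block the count was 1 (Sln) at 2 weeks, 0 against non-cachectic mice at 6 weeks, 3 (Sln, Casq1 and Pvalb) and 4 at 8 weeks, 0 for 8 against 2 weeks and 0 within cachectic mice. Dunn's test has no form for contrasts of differences. TPM carry no read depth, so a low gene such as Pln has an unknown counting error. In libraries with few genes, long transcripts were low at the median over all genes, and single members departed from that median.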
